A study of Homo sapiens with 12 samples.

Results

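Tight junctions seal the gaps between neighbouring epithelial cells, and 9 of their genes were followed here in a human colon cancer cell line in which MUC1 was silenced and in a drug-resistant derivative of it. The genes are the claudins CLDN1, CLDN2, CLDN3, CLDN4, CLDN7 and CLDN12, the occludin gene OCLN, and TJP1 and TJP3, which encode the scaffold proteins ZO-1 and ZO-3. They were taken by symbol from a list drawn up with earlier results of these data known, and all 9 were found among the 25540 genes listed for both lines. Claudins are membrane proteins that span the membrane several times and pair across the gap between cells. Some of them tighten the barrier and others form channels for small ions and water, so the mixture of claudins in a cell sheet sets what it lets through. Occludin sits in the same strands, and the ZO proteins bind the tails of claudins and occludin inside the cell and tie them to actin.

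Messenger RNA was sequenced in 4 groups of 3 libraries. LS411N-BR carrying a MUC1 hairpin was given 500 ng/ml doxycycline or, as its control, 0.1% DMSO as vehicle without doxycycline, and LS411N carrying a MUC1 hairpin was treated in the same 2 ways. LS411N-BR is the derivative of LS411N that is resistant to BRAF inhibitors, and it was kept in 4 µM of a BRAF inhibitor in both of its groups. In both lines a construct with puromycin resistance holds a short hairpin RNA (shRNA) against MUC1 that doxycycline switches on, so that all groups carry the hairpin and the groups without doxycycline are the controls. No doxycycline-treated cells without the hairpin are analysed here, so an effect of doxycycline itself cannot be told apart from one of the hairpin. Cells were grown in triplicate, and nothing says that the triplicates were separate cultures of separate days, so the p-values measure only the spread between these libraries.

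MUC1 itself, the gene targeted, stood at 0.699, 0.388 and 0.440 TPM in LS411N-BR with doxycycline, against 3.69, 3.94 and 4.27 TPM without it. In LS411N it stood at 0.986, 0.814 and 0.967 TPM with doxycycline, against 4.64, 6.10 and 4.54 TPM without it. TPM, in which every library sums to 1000000, is a level per length of transcript, so levels of different genes can be set side by side within a library. MUC1 fell in both lines, and its groups did not overlap. In every library 8 of 9 markers of colon epithelium stood at 1 TPM or more and CDX1 near 0, while 9 markers of blood cells, fibroblasts, endothelium and liver together made 0.235 to 0.584 TPM with 3 to 7 of them at 0. Genes with names of short RNAs took 47.3 to 51.3% of the TPM in LS411N-BR with doxycycline and 52.3 to 54.2% without it. In LS411N without doxycycline they took 47.1% in replicate 3 and 58.0 and 57.9% in the other 2 libraries. The other genes of a library are scaled by what remains, so the changes of the 9 genes with doxycycline are also given after median-of-ratios rescaling, which sets the typical gene of each library to the same level.

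The promoters of CLDN4, CLDN3 and CLDN2 are shown because the first 2 are neighbours on chromosome 7 whose RNAs behaved differently with doxycycline, and because CLDN2 differed most between the lines. Each is the 250 bases before an annotated start in RefSeq on GRCh38.p14, written 5′ to 3′ on the strand of the gene. CLDN4 is on the + strand at chr7:73830746-73830995, CLDN3 on the - strand at chr7:73770271-73770520, and the first of 2 CLDN2 starts on the + strand at chrX:106899914-106900163. Capitals mark the AP-1 motif TGANTCA, the GC box GGGCGG and the E-box CAGGTG, each searched on both strands; none of these motifs overlapped.
CLDN4: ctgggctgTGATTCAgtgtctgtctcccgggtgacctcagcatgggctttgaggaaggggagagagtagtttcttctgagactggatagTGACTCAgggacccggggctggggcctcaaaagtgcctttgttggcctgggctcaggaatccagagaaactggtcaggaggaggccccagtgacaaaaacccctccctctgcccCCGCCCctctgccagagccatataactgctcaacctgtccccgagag
CLDN3: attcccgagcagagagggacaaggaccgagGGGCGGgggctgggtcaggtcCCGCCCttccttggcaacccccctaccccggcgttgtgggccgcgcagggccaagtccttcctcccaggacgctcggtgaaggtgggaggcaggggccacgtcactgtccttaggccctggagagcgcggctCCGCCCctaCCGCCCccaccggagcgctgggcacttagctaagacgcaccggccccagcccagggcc
CLDN2: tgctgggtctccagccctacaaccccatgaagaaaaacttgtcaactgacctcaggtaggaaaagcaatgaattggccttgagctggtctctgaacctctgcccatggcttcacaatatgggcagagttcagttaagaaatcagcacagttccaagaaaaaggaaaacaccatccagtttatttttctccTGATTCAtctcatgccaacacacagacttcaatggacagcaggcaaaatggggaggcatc
CLDN4 holds 2 AP-1 motifs and 1 GC box, and 58.8% of its bases are G or C. CLDN3 holds 4 GC boxes and none of the other motifs, at 71.6% G or C. The promoter shown for CLDN2 holds 1 AP-1 motif at 46% G or C, and that of its other start holds none of the motifs. The same search found no AP-1 motif in any promoter of CLDN1, CLDN7, CLDN12, OCLN, TJP1 or TJP3. Of these, all but CLDN12 were called higher with doxycycline in LS411N-BR, as given below. Of 35116 RefSeq promoters of this length 6.57% hold the AP-1 motif, 42.6% the GC box and 17.5% the E-box. Which start is used in these cells was not measured, and a match is a run of letters, not a site shown to be bound.

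The lowest value of any of the 9 genes in any library was 9.24 TPM, so all of them entered every test. CLDN7, a sealing claudin that binds the surface protein EpCAM, was the highest in every group, with means of 113 ± 7.33 TPM in LS411N-BR with doxycycline and 94.4 ± 2.49 TPM without it, and of 130.1 ± 10.1 TPM in LS411N with doxycycline and 110.3 ± 9.24 TPM without it (SD, n = 3 each). The order of the rest was read after rescaling over shared genes, as explained with the comparison of the lines. In LS411N-BR with doxycycline CLDN4 came next and then CLDN12, whereas without doxycycline CLDN12 stood above CLDN4; none of these neighbours overlapped. In LS411N with doxycycline the order was CLDN7, CLDN4, CLDN2 and CLDN12, with no overlap, and without doxycycline CLDN4, CLDN2 and CLDN12 overlapped from one to the next. The lowest gene was CLDN2 in both groups of LS411N-BR. In LS411N it was CLDN3 with doxycycline and OCLN without it, and there TJP3, CLDN1, TJP1, CLDN3 and OCLN followed each other with overlapping ranges.

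**Figure D1:**
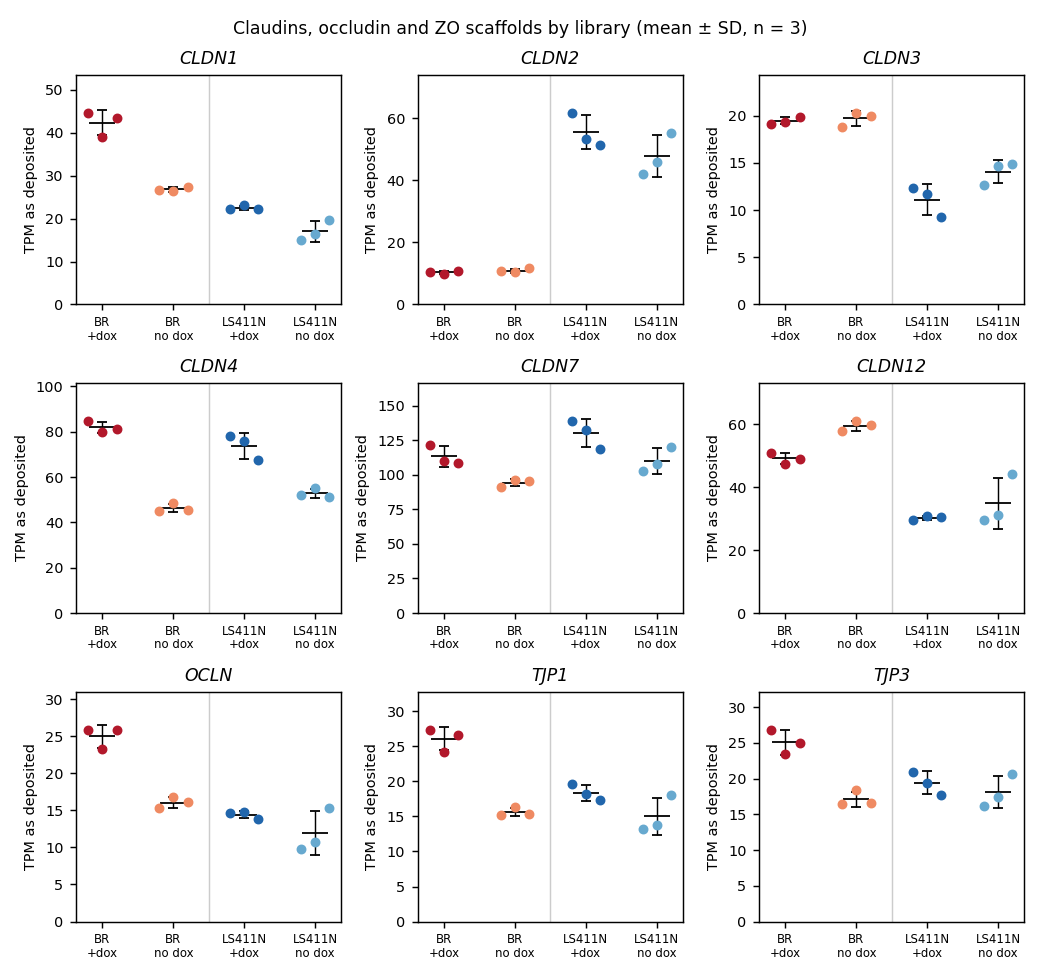
TPM as deposited (vertical axes, each from 0) of the 9 genes in the 12 libraries; points are libraries in replicate order from left to right, wide bars are means and whiskers ±1 SD (n = 3). In LS411N-BR the doxycycline libraries lie above those without doxycycline for CLDN1, CLDN4, CLDN7, OCLN, TJP1 and TJP3 and below them for CLDN12, and the TPM of the 2 lines are scaled over different numbers of genes.

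With MUC1 silenced in LS411N-BR, RNAs of the sealing claudins CLDN1, CLDN4 and CLDN7, of occludin and of both scaffolds rose, CLDN12 fell, and CLDN2 and CLDN3 were not called. These 6 higher and 1 lower calls stand against a background in which 56.1% of the 11322 genes tested were called higher and 11.1% lower, so a majority of higher calls is also what the other genes showed. The median log2 fold change of the 9 genes was 0.52, against 0.18 over all genes tested. After median-of-ratios rescaling, which brought the median of all genes to 0.00, 5 of the 9 were called higher and 3 lower, against 32.3% and 32.2% of all genes, and the median of the 9 was 0.32. Fold changes are of TPM + 1 with doxycycline over without it, tested with limma and adjusted by Benjamini-Hochberg over all genes tested, and a gene was called at an adjusted p under 0.05. The added 1 TPM shrinks changes of genes with few TPM, which are among all genes tested but not among the 9. With a filter of 5 TPM, 5077 of 8338 genes were called higher in LS411N-BR and 836 lower. In bulk libraries fewer cells of a kind and less RNA per cell cannot be told apart.

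CLDN4 (GRCh38 chr7:73799542-73832693, + strand), a claudin that tightens the barrier to ions, had the largest change of the 9 in LS411N-BR. It stood at 84.5, 79.7 and 81.3 TPM with doxycycline, against 45.0, 48.4 and 45.6 TPM without it. The groups were far apart compared with their spread. Its log2 fold change was 0.81 ± 0.06 (SE; limma adjusted p = 5.68e-36), and 0.60 after median-of-ratios rescaling (adjusted p = 6.75e-08). The smallness of the first of these p-values comes with a spread shared by all genes of a level in this line, because limma estimated infinite prior degrees of freedom. The p-values of all other genes in this fit of LS411N-BR rest on the same kind of shared spread, not on a gene's own.

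CLDN1 (chr3:190305701-190322475, - strand), a claudin without which the skin barrier of mice fails, rose in LS411N-BR as well. Its libraries read 44.7, 39.0 and 43.6 TPM with doxycycline, against 26.6, 26.4 and 27.4 TPM without it. All doxycycline libraries lay above all others, with a log2 fold change of 0.64 ± 0.06 (SE; limma adjusted p = 4.02e-22), and 0.44 after rescaling (adjusted p = 1.55e-05).

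CLDN7 (chr17:7259903-7263983, - strand) read 121.9, 110.0 and 108.5 TPM in LS411N-BR with doxycycline, against 91.6, 96.3 and 95.3 TPM without it. These groups did not overlap, but the step was small beside that of CLDN4. The log2 fold change was 0.26 ± 0.06 (SE; limma adjusted p = 6.73e-05), close to the 0.18 of the median gene. After rescaling it was 0.05 and not called (adjusted p = 0.194), so the rise of CLDN7 in LS411N-BR rests on the scale of the deposited TPM. Its exons share 269 bases with a gene on the same strand and 38 bases with ELP5 on the opposite strand.

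CLDN12 (chr7:90383721-90513402, + strand), an unusual claudin whose tail lacks the sequence by which most claudins bind ZO proteins, went the other way. It read 51.0, 47.4 and 49.0 TPM in LS411N-BR with doxycycline, against 57.7, 60.9 and 59.7 TPM without it. Every doxycycline library lay below every library without it. The log2 fold change was -0.27 ± 0.06 (SE; limma adjusted p = 5.03e-05) and -0.48 after rescaling (adjusted p = 4.44e-07), but with a spread taken from all 12 libraries the call was lost (adjusted p = 0.0619). CLDN12 exons overlap those of GTPBP10, CDK14 and 2 further genes on the same strand by 201 to 371 bases each.

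CLDN2 (chrX:106900164-106930861, + strand) forms a channel for small cations and water and is best known from leaky epithelia and inflamed gut. It read 10.6, 9.89 and 10.7 TPM in LS411N-BR with doxycycline, against 10.8, 10.4 and 11.7 TPM without it, and the groups overlapped. The log2 fold change was -0.06 (95% interval -0.20 to 0.07; limma adjusted p = 0.411). Relative to the typical gene it was lower: after rescaling the log2 fold change was -0.26 (adjusted p = 0.00286). RIPPLY1, on the opposite strand, shares 341 of the exonic bases of CLDN2, and no source used here says whether the counting used strand.

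CLDN3 (chr7:73768997-73770270, - strand), a sealing claudin like CLDN4 and a neighbour of it on chromosome 7, read 19.2, 19.3 and 19.9 TPM in LS411N-BR with doxycycline, against 18.8, 20.3 and 20.0 TPM without it. The groups overlapped. The log2 fold change was -0.02 (95% interval -0.15 to 0.11; limma adjusted p = 0.837), and -0.22 after rescaling (adjusted p = 0.00109). The RefSeq starts used for the promoters of CLDN3 and CLDN4 lie 60726 bases apart. Between the GENCODE spans of the 2 genes, a shorter stretch, lie 0 annotated genes. The ratio of their TPM nonetheless changed with doxycycline. No scaling of a library alters such a ratio. CLDN4 over CLDN3 was 4.41, 4.13 and 4.08 in LS411N-BR with doxycycline, against 2.39, 2.38 and 2.28 without it. In LS411N it was 6.33, 6.45 and 7.29 with doxycycline, against 4.11, 3.75 and 3.44 without it. The ratio was higher with doxycycline in all libraries of both lines, without overlap. Of 6 ratios computed, 4 differed without overlap in both lines and 2 did not. How often ratios of other pairs of genes do so was not computed, so these counts are no result about the 9 genes. Among single genes on the deposited scale, 56% lay wholly higher and 12.1% wholly lower with doxycycline in LS411N-BR. In LS411N 19.3% lay wholly higher and 9.63% wholly lower. OCLN over TJP1 was 0.946 to 0.969 in LS411N-BR with doxycycline and 1.01 to 1.05 without it, but 0.746 to 0.808 in LS411N with doxycycline and 0.743 to 0.853 without it, with overlap. CLDN2 over CLDN7 was 0.0868 to 0.0989 in LS411N-BR with doxycycline and 0.108 to 0.122 without it, and overlapped in LS411N at 0.402 to 0.445 with doxycycline and 0.411 to 0.459 without it.

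**Figure D2:**
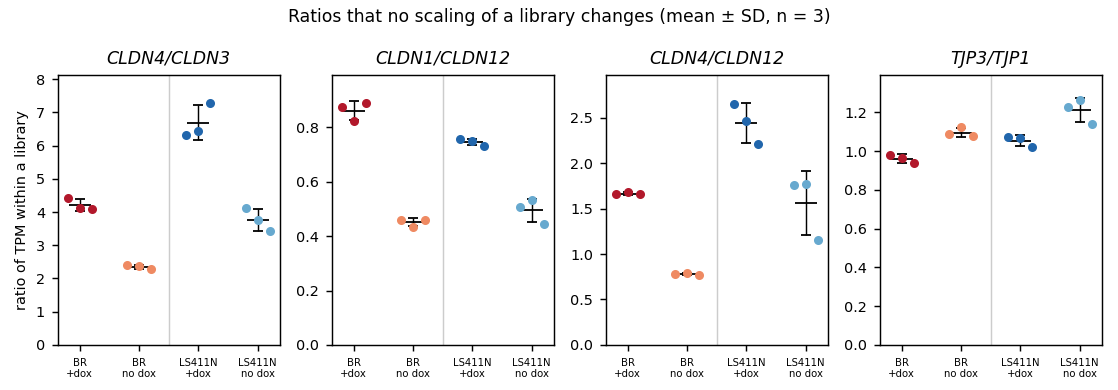
Ratios of TPM within each library (vertical axes, each from 0) for the 4 of 6 pairs of genes whose groups did not overlap in either line; points are libraries, wide bars means and whiskers ±1 SD (n = 3). CLDN4 over CLDN3, CLDN1 over CLDN12 and CLDN4 over CLDN12 are higher with doxycycline than without it in each line, and TJP3 over TJP1 is lower, without overlap between the groups of a line.

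OCLN (chr5:69492292-69558104, + strand), the gene of occludin, read 25.9, 23.3 and 25.9 TPM in LS411N-BR with doxycycline, against 15.3, 16.8 and 16.1 TPM without it. All doxycycline libraries were higher, by a log2 fold change of 0.61 ± 0.07 (SE; limma adjusted p = 3.75e-19), and 0.41 after rescaling (adjusted p = 6.23e-06). A pseudogene copy, OCLNP1, is annotated on the same chromosome, so reads of OCLN could have been split and its values are uncertain to that extent.

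The scaffolds rose with it. TJP1 (chr15:29699367-29968865, - strand), the gene of ZO-1, read 27.3, 24.3 and 26.7 TPM in LS411N-BR with doxycycline, against 15.1, 16.3 and 15.4 TPM without it. Its log2 fold change was 0.70 ± 0.07 (SE; limma adjusted p = 1.54e-25), and 0.51 after rescaling (adjusted p = 7.69e-07). TJP3 (chr19:3708109-3750813, + strand), the gene of ZO-3, a scaffold found mainly in epithelia, read 26.8, 23.4 and 25.0 TPM with doxycycline, against 16.5, 18.3 and 16.5 TPM without it. Its log2 fold change was 0.52 ± 0.07 (SE; limma adjusted p = 1.12e-14), and 0.32 after rescaling (adjusted p = 1.78e-05). Neither scaffold had groups that overlapped. TJP3 over TJP1 was 0.961 ± 0.022 in LS411N-BR with doxycycline and 1.10 ± 0.025 without it, and 1.05 ± 0.027 in LS411N with doxycycline and 1.21 ± 0.063 without it (SD, n = 3 each). The balance thus moved towards TJP1 with doxycycline in each line, though TJP3 stayed the higher of the pair in LS411N.

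In LS411N, CLDN4 alone was called with doxycycline, higher. This 1 of 9 stands against 9.75% of the 11281 genes tested called higher and 3.43% called lower, a share near the background. The median log2 fold change of the 9 genes was 0.24, against 0.08 over all genes tested. After median-of-ratios rescaling 4 of the 9 were called higher and 2 lower, against 18.8% and 16.0% of all genes, with medians of 0.16 for the 9 and 0.01 for all genes.

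CLDN4 read 78.2, 75.7 and 67.3 TPM in LS411N with doxycycline, against 52.1, 55.0 and 51.2 TPM without it. The groups did not overlap. The log2 fold change was 0.47 ± 0.14 (SE; limma adjusted p = 0.0174), and 0.40 after rescaling (adjusted p = 0.0229). The call was lost on leaving out LS411N without doxycycline replicate 1 or any 1 of the doxycycline libraries (adjusted p = 0.0607 to 0.185).

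For CLDN1 the LS411N libraries were 22.3, 23.1 and 22.3 TPM with doxycycline, against 14.9, 16.5 and 19.7 TPM without it. They did not overlap, but the log2 fold change of 0.39 (95% interval 0.11 to 0.68) missed the threshold (limma adjusted p = 0.0534) and passed it after rescaling (0.32, adjusted p = 0.00222). CLDN3 was lower in every doxycycline library of LS411N, at 12.3, 11.7 and 9.24 TPM with doxycycline against 12.7, 14.7 and 14.9 TPM without it. It was not called on the deposited scale (log2 fold change -0.32, 95% interval -0.61 to -0.04, limma adjusted p = 0.134) and was called after rescaling (-0.39, adjusted p = 0.0153).

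The other 6 genes had overlapping groups in LS411N. In each of them the library highest without doxycycline was replicate 3, the one with the fewest TPM in genes named as short RNAs. Replicate 3 was also the highest library without doxycycline for CLDN1 and CLDN3, though not for CLDN4, so this does not set the 6 apart. OCLN read 14.6, 14.7 and 13.9 TPM with doxycycline, against 9.82, 10.8 and 15.4 TPM without it. TJP1 read 19.6, 18.2 and 17.4 TPM with doxycycline, against 13.2, 13.8 and 18.0 TPM without it. For OCLN, TJP1, CLDN2, CLDN7 and TJP3, replicates 1 and 2 without doxycycline lay below every doxycycline library. For CLDN12 they did not. CLDN12 read 29.5, 30.7 and 30.5 TPM with doxycycline, against 29.5, 31.1 and 44.2 TPM without it. Without LS411N without doxycycline replicate 3, the log2 fold change of CLDN12 was -0.0015 (limma adjusted p = 0.983). CLDN2 read 61.8, 53.2 and 51.5 TPM with doxycycline, against 42.1, 46.0 and 55.4 TPM without it. CLDN7 read 138.8, 132.5 and 119.0 TPM with doxycycline, against 102.6, 107.7 and 120.5 TPM without it. TJP3, the last, read 21.0, 19.4 and 17.8 TPM with doxycycline, against 16.2, 17.5 and 20.6 TPM without it.

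None of these 6 was called on the deposited scale, with limma adjusted p of 0.252 for OCLN, 0.201 for TJP1, 0.503 for CLDN12, 0.386 for CLDN2, 0.322 for CLDN7 and 0.731 for TJP3. After rescaling OCLN (log2 fold change 0.20, limma adjusted p = 0.0441) and TJP1 (0.21, adjusted p = 0.00911) were called higher and CLDN12 (-0.25, adjusted p = 0.0166) lower. Without LS411N without doxycycline replicate 3, on the deposited scale, 8 of the 9 genes were called, 7 higher and 1 lower, CLDN12 being the exception. In that fit the log2 fold change was 0.45 for OCLN (limma adjusted p = 0.000115) and 0.42 for TJP1 (adjusted p = 0.000229), and 5930 genes in all were called higher and 707 lower. The part that the make-up of this library has in these results was not tested beyond that.

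**Figure D3:**
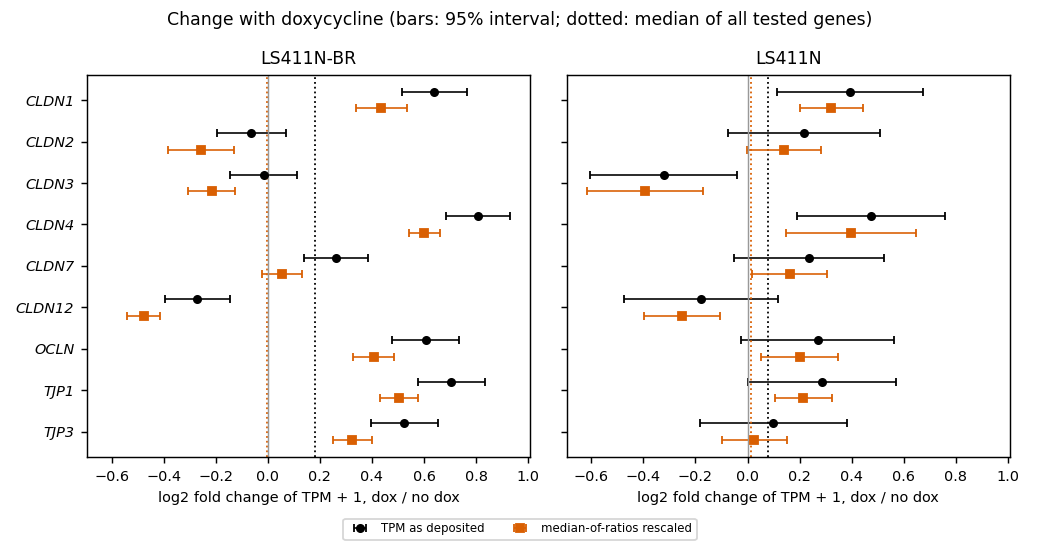
Log2 fold change of TPM + 1 with doxycycline over without it (horizontal axes) for the 9 genes in LS411N-BR (left) and LS411N (right), on the deposited scale and after median-of-ratios rescaling; bars are 95% intervals and dotted lines the median of all genes tested. CLDN4, CLDN1, OCLN and TJP1 lie right of CLDN12 and CLDN3 in both lines on both scales, and the intervals on the deposited scale are wider in LS411N.

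Whether the doxycycline effect differed between the lines was tested with the interaction term over all 12 libraries. It called 0 of the 9 genes with limma on the deposited scale, against 1.39% of the 11674 genes tested called higher in LS411N-BR than in LS411N and 0.728% lower. At an unadjusted p under 0.05, 1526 of all genes passed, and 4 of the 9 were among them. These were TJP3 with a difference of log2 fold changes of 0.43 (95% interval 0.13 to 0.73, limma adjusted p = 0.169), TJP1 with 0.42 (0.11 to 0.73, limma adjusted p = 0.2), CLDN4 with 0.33 (limma adjusted p = 0.246) and CLDN3 with 0.31 (limma adjusted p = 0.368). After median-of-ratios rescaling 4.37% of all genes were called higher and 5.81% lower, and among the 9 genes TJP1 (0.29, adjusted p = 0.00406) and TJP3 (0.30, adjusted p = 0.00755) were called higher and CLDN2 (-0.39, adjusted p = 0.015) lower. Without LS411N without doxycycline replicate 3, on the deposited scale, 5 of the 9 were called, TJP1, TJP3 and CLDN4 higher and CLDN2 and CLDN12 lower, while over the 11624 genes of that fit 465 were called higher and 593 lower.

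The mixture of claudins can be read without regard to scale, as the share of each in the summed TPM of the 6 claudins of a library. CLDN4 made 25.9 ± 0.335% in LS411N-BR with doxycycline and 18.0 ± 0.425% without it, and CLDN12 made 15.5 ± 0.138% with doxycycline and 23.1 ± 0.113% without it (SD, n = 3 each). CLDN1 made 13.4 ± 0.575% in LS411N-BR with doxycycline and 10.4 ± 0.306% without it. The share of CLDN7 hardly moved, at 35.8 ± 1.05% with doxycycline and 36.6 ± 0.078% without it. CLDN3 made 6.15 ± 0.327% with doxycycline and 7.65 ± 0.116% without it, and CLDN2 3.28 ± 0.125% with doxycycline and 4.24 ± 0.276% without it. In LS411N-BR the groups overlapped in the share of CLDN7 alone. The summed level of the 6 claudins was 317 ± 13.6 TPM in LS411N-BR with doxycycline and 258 ± 6.35 TPM without it, on the deposited scale.

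In LS411N CLDN4 made 22.8 ± 0.351% with doxycycline, against 20.5, 20.3 and 16.7% without it. CLDN12 made 9.39 ± 0.778% of the 6 claudins in LS411N with doxycycline, against 11.6, 11.5 and 14.4% without it. The groups did not overlap for either gene, and replicate 3 without doxycycline stood apart in both. CLDN3 made 3.42 ± 0.297% with doxycycline and 5.09 ± 0.287% without it, and CLDN1 7.00 ± 0.476% with doxycycline and 6.14 ± 0.284% without it (SD, n = 3 each). CLDN2 overlapped at 17.2 ± 0.872% with doxycycline and 17.2 ± 0.785% without it, and so did CLDN7 at 40.2 ± 0.465% with doxycycline and 39.9 ± 0.514% without it. CLDN1 over CLDN12 was 0.862 ± 0.035 in LS411N-BR with doxycycline and 0.451 ± 0.015 without it, and 0.747 ± 0.012 in LS411N with doxycycline and 0.495 ± 0.044 without it. A shift of the mixture towards CLDN4 and CLDN1 and away from CLDN12 and CLDN3 thus stood in both lines. The shares of a library always make up the whole, so a rise of some lowers others. In LS411N-BR CLDN3 itself averaged 19.5 TPM with doxycycline and 19.7 TPM without it, with overlap, while the sum of the claudins was higher.

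**Figure D4:**
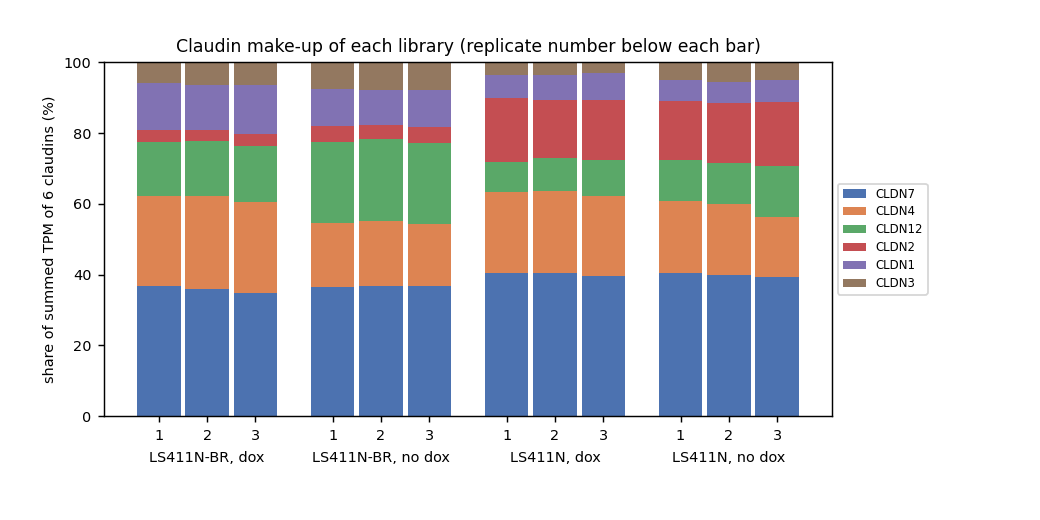
Share of each of 6 claudins in their summed TPM (vertical axis, percent) in the 12 libraries, 1 bar a library, with replicate numbers below the bars. CLDN2 makes 3.19 to 4.49% in the libraries of LS411N-BR and 16.3 to 18.1% in those of LS411N, and the band of CLDN4 is wider and that of CLDN12 narrower with doxycycline than without it in each line.

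Between the lines the gene with the widest gap was CLDN2, the channel-forming claudin. The 2 lines were scaled over different numbers of genes, so their levels were rescaled over the genes they share and set side by side without a test. CLDN2 averaged 10.9 TPM in LS411N-BR without doxycycline and 61.0 TPM in LS411N without doxycycline, which was 5.59-fold higher in LS411N, or 4.38-fold on the deposited scale. With doxycycline it averaged 10.4 TPM in LS411N-BR and 70.8 TPM in LS411N, 6.80-fold higher in LS411N. As a share of the 6 claudins it made 3.94 to 4.49% in LS411N-BR without doxycycline and 16.6 to 18.1% in LS411N without doxycycline. The lines also differed in the BRAF inhibitor that LS411N-BR was kept in, and the inhibitor and the resistant state cannot be told apart.

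Without doxycycline and after rescaling, all 3 LS411N-BR libraries lay above all 3 LS411N libraries for 2 of the 9 genes and below them for 5, against 15.6% and 49.8% of 11485 genes. The genes that were higher in LS411N-BR were CLDN1, at 26.8 TPM in LS411N-BR and 21.7 TPM in LS411N, and CLDN12, at 59.5 TPM in LS411N-BR and 44.5 TPM in LS411N. They were also higher on the deposited scale, by 1.57-fold and 1.70-fold. Those that were lower in LS411N-BR were CLDN2, CLDN4, CLDN7, TJP1 and TJP3. Over all genes the median fold of LS411N-BR over LS411N was 0.861 after rescaling and 1.07 as deposited. Of these 5 genes, TJP1 at 0.815-fold and TJP3 at 0.741-fold after rescaling lay nearest to the 0.861. The 5 of 9 lower is near the 49.8% of all genes. For CLDN4 the means were 46.4 TPM in LS411N-BR and 67.4 TPM in LS411N, and for CLDN7 94.4 TPM in LS411N-BR and 141 TPM in LS411N. On the deposited scale 3 genes lay above and 3 below without overlap, against 34.8% and 24.8% of all genes, so the scale mattered for TJP1, TJP3 and CLDN3. CLDN3 overlapped after rescaling but was 1.40-fold higher in LS411N-BR without overlap as deposited. TJP1 stood at 15.6 TPM in LS411N-BR against 19.2 TPM in LS411N after rescaling, but at 15.6 TPM in LS411N-BR against 15.0 TPM in LS411N as deposited, with overlap. With doxycycline CLDN4 was lower in LS411N-BR after rescaling (81.9 TPM against 94.0 TPM in LS411N) and higher as deposited (81.9 TPM against 73.7 TPM in LS411N). OCLN overlapped between the lines without doxycycline on either scale. With doxycycline OCLN was higher in LS411N-BR without overlap, 1.36-fold after rescaling and 1.73-fold as deposited, as was CLDN3 (1.38-fold and 1.75-fold). With doxycycline and after rescaling, 4 of the 9 genes lay wholly higher in LS411N-BR and 3 wholly lower, against 31.2% and 47.2% of all genes. As deposited the counts were 7 and 1, against 56.2% and 23.4%.

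For each gene the 2 other genes whose profile over the 4 group means was nearest were looked up among 8414 genes that averaged at least 5 TPM. The distance was Euclidean, on centred log2(TPM + 1) rescaled over shared genes, and no function or control is read from it. CLDN4 was nearest to NR1H2 (distance 0.0521) and GSN (0.058), and CLDN1 to NAA60 (0.0253) and TMEM126A (0.0319). The nearest to CLDN2, DRAP1 (0.122) and PRDX5 (0.135), were farther from it than the nearest genes of any other of the 9. DRAP1 averaged 17.8 TPM in both groups of LS411N-BR, and 106 TPM in LS411N with doxycycline and 101 TPM without it. CLDN3 was nearest to PHC3 (0.0278), CLDN7 to PLEKHF2 (0.0306) and USF1 (0.034), and CLDN12 to MTERF3 (0.0422) and PPP1CC (0.0479). OCLN was nearest to CHP1 (0.021) and IL4R (0.0334), TJP1 to EXOC6B (0.045) and AGFG2 (0.0478), and TJP3 to ATF7 (0.0426) and C1ORF198 (0.0474). With 4 points a profile, many genes can come this close.

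Of 18 further claudin genes only CLDN15 and CLDN23 reached 1 TPM in enough libraries to be tested, and the highest value of any of the other 16 was 0.765 TPM, for CLDN18 in LS411N without doxycycline. CLDN18, known as a claudin of stomach and lung, stood at 0.380 TPM in LS411N with doxycycline and 0.730 TPM without it, and at 0.00374 TPM in LS411N-BR with doxycycline and 0.00360 TPM without it, with no test. CLDN23, a claudin of the differentiated gut surface, averaged 4.04 ± 0.154 TPM in LS411N-BR with doxycycline and 1.98 ± 0.153 TPM without it (SD, n = 3 each; log2 fold change 0.76, limma adjusted p = 1.89e-23). In LS411N CLDN23 averaged 2.77 ± 0.160 TPM with doxycycline and 1.49 ± 0.130 TPM without it (SD, n = 3 each; log2 fold change 0.60, limma adjusted p = 0.000272). CLDN15, which forms cation channels in the intestine, averaged 1.88 TPM in LS411N-BR with doxycycline and 1.85 TPM without it and was not called in either line on the deposited scale. After rescaling CLDN15 was called lower in LS411N (log2 fold change -0.26, limma adjusted p = 0.0133) and not called in LS411N-BR, and CLDN23 was called higher in both lines.

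Other partners of the tight junction were 29 listed genes, 22 of them tested. In LS411N-BR 15 rose and 2 fell, and in LS411N 4 rose and 0 fell; after median-of-ratios rescaling the counts were 12 higher and 3 lower in LS411N-BR and 10 higher and 2 lower in LS411N. The median log2 fold changes were 0.34 in LS411N-BR and 0.21 in LS411N on the deposited scale, against 0.18 in LS411N-BR and 0.08 in LS411N over all genes. The shares of all genes called were 56.1% higher and 11.1% lower in LS411N-BR and 9.75% higher and 3.43% lower in LS411N, and after rescaling 32.3% higher and 32.2% lower in LS411N-BR and 18.8% higher and 16.0% lower in LS411N; the counts of the lists below are read against these shares. CGN, the gene of cingulin, which links ZO proteins to myosin, averaged 7.40 ± 0.321 TPM in LS411N-BR with doxycycline and 3.55 ± 0.120 TPM without it, with a log2 fold change of 0.88 (limma adjusted p = 5.92e-34). In LS411N cingulin RNA averaged 6.19 ± 0.271 TPM with doxycycline and 3.81 ± 0.278 TPM without it (log2 fold change 0.58, limma adjusted p = 0.00105). CXADR, an adhesion protein of junctions and a virus receptor, rose in LS411N-BR (0.71, limma adjusted p = 1.14e-27) and in LS411N (0.48, limma adjusted p = 0.0166). AMOTL2, an angiomotin that binds junctional scaffolds, rose in LS411N-BR (0.66, limma adjusted p = 1.86e-20) and in LS411N (0.61, limma adjusted p = 0.00106). The 2 that fell in LS411N-BR, named after their values were seen, were ILDR1, an angulin of tricellular contacts (-0.20, limma adjusted p = 0.0139), and PARD6B, a polarity protein (-0.21, limma adjusted p = 0.00303). Every call of CGN, CXADR, AMOTL2, ILDR1 and PARD6B was also made after rescaling, when ILDR1 and PARD6B were called lower in LS411N too.

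CLDN7 is known to form a complex with EpCAM, and genes tied to that complex, surface proteases and their inhibitors among them, made a list of 6 genes, all tested. In LS411N-BR 5 rose and 0 fell, and in LS411N 1 rose and 0 fell; after rescaling 3 were higher and 1 lower in LS411N-BR and 2 higher and 1 lower in LS411N. Over all genes 56.1% were called higher in LS411N-BR and 9.75% in LS411N, and after rescaling 32.3% in LS411N-BR and 18.8% in LS411N. SPINT1, an inhibitor of surface proteases, rose in LS411N-BR (0.60, limma adjusted p = 1.21e-19), as did the protease PRSS8 (0.53, limma adjusted p = 2.28e-15) and the inhibitor SPINT2 (0.27, limma adjusted p = 3.41e-05), and none of these 3 was called in LS411N on the deposited scale. EPCAM, named because of its tie to CLDN7 after its values were seen, averaged 797 ± 20.8 TPM in LS411N-BR with doxycycline and 675 ± 27.2 TPM without it (0.24, limma adjusted p = 0.000191), and in LS411N it averaged 503 ± 19.3 TPM with doxycycline and 494 ± 104 TPM without it, which was not called (limma adjusted p = 0.896). After rescaling, in LS411N-BR, SPINT1 and PRSS8 were still called higher, but SPINT2 (0.06, limma adjusted p = 0.0848) and EPCAM (0.03, limma adjusted p = 0.455) were not. The rises of SPINT2 and EPCAM in LS411N-BR thus rest on the scale of the deposited TPM.

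Around the ring of actin and myosin that pulls on the junction, 9 of 10 listed genes were tested, and 6 rose and 1 fell in LS411N-BR while 2 rose and 0 fell in LS411N. After rescaling the counts were 4 higher and 2 lower in LS411N-BR and 4 higher and 0 lower in LS411N. With 56.1% of all genes called higher and 11.1% lower in LS411N-BR, the 6 and 1 of 9 lie near the background there, and the median log2 fold change of the list after rescaling in LS411N-BR was -0.0032. ARHGEF18, an exchange factor that activates RhoA at junctions, had log2 fold changes of 0.95 in LS411N-BR (limma adjusted p = 4.93e-42) and 0.54 in LS411N (limma adjusted p = 0.00441). MYL12B, a myosin light chain, rose by 0.45 in LS411N-BR (limma adjusted p = 9.41e-13) and 0.43 in LS411N (limma adjusted p = 0.0407). MYL12A, a close copy of MYL12B with which it could share reads, and the kinase ROCK2 rose in LS411N-BR (0.41 and 0.35, limma adjusted p = 9.25e-11 and 1.43e-07) and were called in LS411N only after rescaling (0.27 and 0.31, limma adjusted p = 0.0295 and 0.000866). The gene that fell in LS411N-BR, named after its values were seen, was MYL9, another light chain, at 2.44 ± 0.296 TPM with doxycycline and 3.06 ± 0.486 TPM without it (limma adjusted p = 0.00273). In LS411N-BR these 5 genes were called in the same direction after rescaling, as were ARHGEF18 and MYL12B in LS411N.

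Of 9 transcription factors and splicing regulators of epithelial cells 7 rose and 0 fell in LS411N-BR and 2 rose and 0 fell in LS411N; after rescaling 4 were higher and 2 lower in LS411N-BR and 3 higher and 0 lower in LS411N. Over all genes 56.1% were called higher in LS411N-BR and 9.75% in LS411N, and after rescaling the median log2 fold change of the list in LS411N-BR was 0.01, close to the 0.00 of all genes. KLF4, a factor of differentiated gut epithelium, averaged 84.0 ± 3.94 TPM in LS411N-BR with doxycycline and 28.1 ± 1.82 TPM without it, and 52.3 ± 3.45 TPM in LS411N with doxycycline and 22.1 ± 3.24 TPM without it. CDX2, an intestinal identity factor, rose in LS411N-BR (0.39, limma adjusted p = 1.26e-08) and in LS411N (0.49, limma adjusted p = 0.0145). HNF4A, a nuclear receptor of gut epithelium, and ESRP2, a splicing factor of epithelia, rose in LS411N-BR (0.41 and 0.39, limma adjusted p = 1.71e-09 and 4.12e-08) and were not called in LS411N on either scale. After rescaling KLF4 and CDX2 were called higher in both lines and HNF4A and ESRP2 in LS411N-BR. Of 6 repressors known to bind E-boxes of junction genes in other cells, SNAI1 alone could be tested. It averaged 4.94 TPM in LS411N-BR with doxycycline and 4.45 TPM without it (limma adjusted p = 0.121), and 2.34 TPM in LS411N with doxycycline and 2.10 TPM without it (limma adjusted p = 0.664). TWIST1 and TWIST2 were listed at 0 in all 12 libraries, and ZEB1 reached at most 0.217 TPM on the deposited scale.

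Markers of colon epithelium moved in the same libraries. In LS411N-BR all 8 that were tested rose and in LS411N 4 did, and after rescaling 5 were called higher in each line. The shares of all genes called higher were 56.1% in LS411N-BR and 9.75% in LS411N, and after rescaling 32.3% in LS411N-BR and 18.8% in LS411N. KRT20, a keratin of the mature gut surface, averaged 145 ± 10.3 TPM in LS411N-BR with doxycycline and 24.7 ± 1.82 TPM without it, and 17.3 ± 0.921 TPM in LS411N with doxycycline and 3.64 ± 1.21 TPM without it (SD, n = 3 each). CDH17, an intestinal cadherin, rose in LS411N-BR (0.69, limma adjusted p = 4.34e-28) and in LS411N (0.98, limma adjusted p = 5.45e-06). The simple keratin genes KRT8 and KRT18 rose in LS411N-BR (0.64 and 0.48, limma adjusted p = 3.18e-24 and 5.68e-14). In LS411N KRT8 rose (0.59, limma adjusted p = 0.00427) and KRT18 was called only after rescaling (0.27, limma adjusted p = 0.0164). The other calls of KRT20, CDH17, KRT8 and KRT18 were made after rescaling as well. The 9 markers together made 3700.5 to 3894 TPM in LS411N-BR with doxycycline and 2538 to 2714 TPM without it, and 2698 to 3114 TPM in LS411N with doxycycline. In LS411N without doxycycline they made 2787 TPM in replicate 3, which also had the fewest genes above 0 (15116 of them), and 2005 and 1997 TPM in the other 2 libraries. The part of these markers in the changes of the tight junction genes was not tested.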

How the data were processed

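The deposited values are TPM per gene, 1 table per line, from 12 libraries prepared with TruSeq Stranded mRNA per the labels' protocols. The submitters' processing notes name STAR, DESeq2 and the build GRCh38 but not what each was used for. The program that gave TPM, the annotation behind it and the number of reads are not given in these sources, so the depth is unknown and no counting interval is given.

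Libraries were grouped by line and doxycycline. Two-sided tests for changes used limma (version 3.58.1, under R 4.3.3) with its trend option on log2(TPM + 1). Genes entered a test if 3 or more of its libraries had 1 TPM or more. The added 1 TPM shrinks changes of genes with few TPM. Calls were made at 0.05 after Benjamini-Hochberg adjustment over all genes tested. The difference between the lines was the interaction over 12 libraries. The fit was tested on simulated data with independent noise for each gene, which held no shift shared by a whole library. With 25673 genes listed for LS411N and 25540 for LS411N-BR, levels across lines were rescaled over the shared 25540 genes.

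The 9 genes and all lists were chosen with earlier results of these data known. Named are MUC1, the 9 genes, and in each list up to 4 called genes with the smallest adjusted p in either line, with exceptions stated. Gene positions are from GENCODE 29, promoters from RefSeq, which matched all 9 genes. PALS1 was matched as MPP5. A few genes chosen by these rules are left out here, without substitutes.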

Additional observations from a re-analysis of the deposited data

How the results depend on the processing

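In LS411N-BR 6 to 8 of the 9 genes were called under the alternatives run, against 7 as reported. The call changed for 4 of the 9: after median-of-ratios rescaling CLDN7 lost its call (adjusted p = 0.194 with limma) and CLDN2 and CLDN3 were called lower, and with the spread from all 12 libraries CLDN12 lost its call (adjusted p = 0.0619). In LS411N 1 gene was called as reported, 6 after median-of-ratios rescaling, 2 after rescaling over the shared genes, 2 with no trend and 3 with the spread from all 12 libraries. Leaving out 1 library of LS411N gave between 0 and 8 called genes, the 8 without replicate 3 without doxycycline. For the difference between the lines 0 genes were called as reported, 3 after median-of-ratios rescaling, and 0 to 5 on leaving out 1 library, the 5 again without that replicate. The cause was not tested. For libraries of the same number the correlations of deviations were 0.0294, 0.00622 and 0.173 in LS411N and 0.023, 0.00307 and 0.00837 in LS411N-BR. For libraries of different numbers they ran from -0.212 to 0.214 in LS411N and from -0.0866 to 0.0695 in LS411N-BR. The former lie within the range of the latter, but with 3 libraries a group this cannot exclude that numbers pair samples. With the replicate number as a block 0 of the 9 genes were called in LS411N (CLDN4 adjusted p = 0.135 with limma), and the counts of the other comparisons stayed within 1.5 times. Over all genes the block left 632 called higher and 268 lower in LS411N, against 1100 and 387. Among alternative fits of single genes 411 gave the direction and call as reported, 26 gained a call and 7 lost one. In 6 the direction of a gene that was not called turned. On leaving out 1 library the log2 fold change of CLDN3 in LS411N-BR ran from -0.0474 to 0.0045, and the difference between the lines from -0.269 to 0.0154 for CLDN12 and from -0.0408 to 0.0743 for CLDN7, which was -0.10 after median-of-ratios rescaling. Of 36 mean levels 17 moved by more than 1 SD between the deposited scale and that of the shared genes, all in LS411N. Unknown depth and 3 libraries a group limit what can be seen.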
